A study of Homo sapiens with 8 samples.

Results

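The Notch receptors NOTCH1, NOTCH2, NOTCH3 and NOTCH4 and the ligands JAG1, JAG2, DLL1, DLL3 and DLL4 were followed in breast cancer cells after silencing of HMGA1. All probe sets that the array annotation maps to 1 gene among these 9 were taken, which gave 25 of the 54613 non-control probe sets on the array, 10 for the receptors and 15 for the ligands. The rule that picks the probe sets uses gene names and no measured value, though the genes were chosen with earlier results of these data known. Each probe set is a group of short DNA probes aimed at 1 region of a transcript, and some may pick up related transcripts as well. Its signal is given on the log2 scale, so that a difference of 1 is a doubling.

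RNA came from MDA-MB-231, an established human breast cancer line of the basal-like type, 72 h after transfection. The 4 arrays called siCTRL come from cells given a control siRNA, and the 4 called siHMGA1 from cells given one that silences HMGA1. Both groups were therefore transfected cells of the same line and differed in the siRNA. HMGA1 belongs to chromatin as an architectural factor, and its AT-hooks hold on to stretches rich in A and T. The labels call the 4 samples of each group biological replicates without saying how the cultures were kept apart, so p-values measure the spread between these samples. The methods name a single HMGA1 siRNA for the arrays, and its effect on HMGA1 cannot be told apart here from any other effect of that siRNA.

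Notch signalling passes between touching cells. A ligand on 1 cell binds a receptor on its neighbour, the receptor is cut by an ADAM protease and then by gamma-secretase, and the released intracellular part joins RBPJ and a MAML coactivator in the nucleus to switch on genes such as HES1. In breast epithelium the pathway takes part in cell fate decisions, and JAG1 is a ligand much studied in basal-like tumours.

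The brightest HMGA1 probe set, 206074_s_at, lay at 12.62, 12.84, 12.69 and 12.85 in siCTRL 1 to 4 and at 10.11, 10.37, 10.29 and 10.57 in siHMGA1 1 to 4. The log2 fold change, siHMGA1 minus siCTRL, was -2.42 (95% interval -2.63 to -2.20, limma adjusted p = 5.20e-08), and the second HMGA1 probe set, 210457_x_at, fell by 0.90 (limma adjusted p = 0.00107). The silenced gene was thus lower in all 4 arrays that the labels call siHMGA1. The 8 arrays had mean signals of 6.568 to 6.581, and correlations were 0.9949 to 0.9982 within a group and 0.9888 to 0.9924 between groups. The 6 mesenchymal and basal markers VIM, CD44, CAV1, MSN, AXL and EGFR had means of 11.8 to 14.6, while ESR1, PGR and FOXA1 lay at 6.47, 4.003 and 4.19 and the luminal marker GATA3 at 9.79. Of 5 leukocyte markers, 4 were measured, with means of 4.92 to 6.83; their summed signal ran from 8.11 to 8.32 in siCTRL and from 8.15 to 8.25 in siHMGA1. PTPRC among them went from 4.67 to 5.17 (limma adjusted p = 1.62e-04), and its part in the results below was not tested.

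JAG1 fell after HMGA1 silencing, to between 52.4% and 60.8% of its siCTRL signal on the 4 probe sets that moved. These 4 of its 6 probe sets passed an adjusted p of 0.05, all of them lower in siHMGA1 (limma, Benjamini-Hochberg over all 54613 probe sets). None of the 19 probe sets of the other 8 genes passed that threshold. An unadjusted p under 0.05 (limma) was found for 2 of these 19, and for 17257 of all 54613 probe sets. Over the whole array 22.1% of probe sets passed, 10.4% lower and 11.7% higher in siHMGA1. At the study's own thresholds for its gene list, 0.396% of all probe sets and none of these 25 passed. The share of all probe sets whose groups did not overlap was 25.5%, with siHMGA1 lower in 11.9%, and the 4 JAG1 probe sets were the only ones of the 25 with groups apart. JAG1 is a membrane-bound ligand that activates Notch receptors on neighbouring cells. The study reported it lower by real-time PCR after HMGA1 silencing in this line, so its direction here is not independent evidence. In RNA of whole cultures, fewer cells with the transcript and less of it per cell cannot be told apart.

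**Figure D1:**
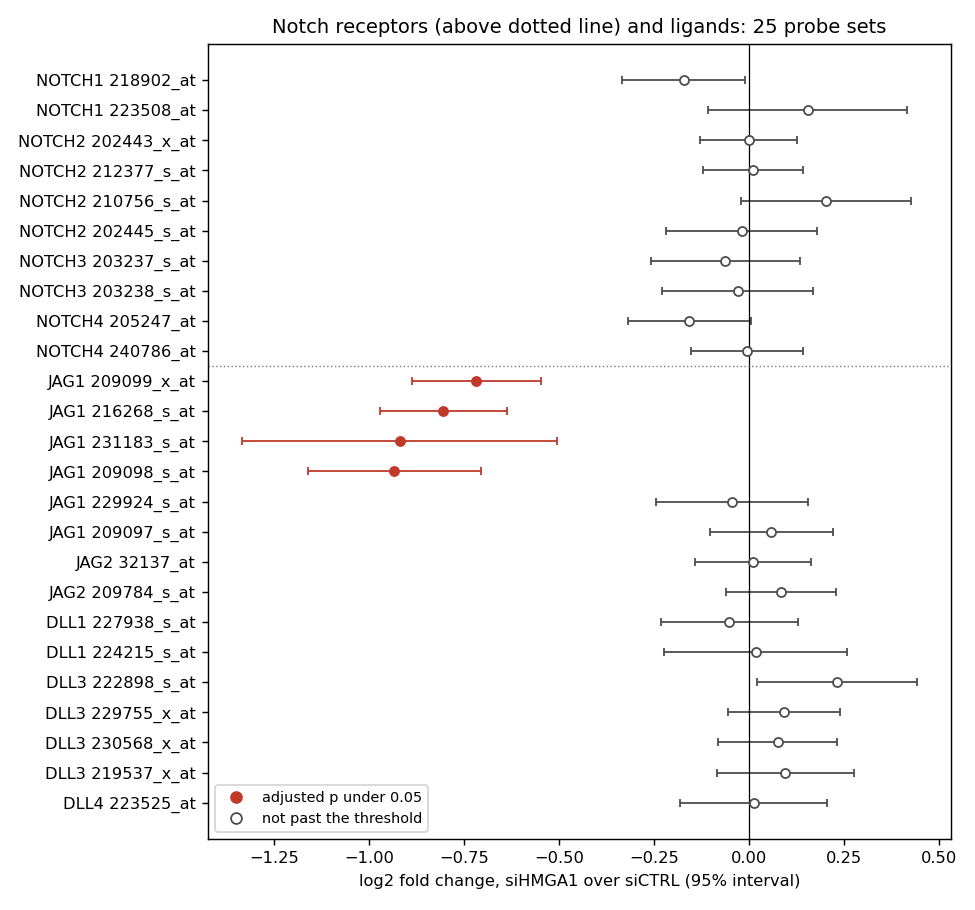
Log2 fold change of each of the 25 probe sets, siHMGA1 over siCTRL, with its 95% interval (4 arrays per group, limma), receptors above the dotted line and ligands below it. Filled red points passed an adjusted p of 0.05. The 4 red points are JAG1 probe sets, between -0.72 and -0.93, and all other points lie between -0.17 and 0.23.

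The promoter of JAG1 is shown with those of DLL4 and JAG2, because HMGA1 binds to runs of A and T and these are the 3, of 7 in the table used, with the longest unbroken runs of A and T. The stretches below come from the RefSeq promoter table (GRCh38.p14), which holds a window of 300 bases around the start of 7 of the 9 genes. Capitals mark the longest run made only of A and T letters, which reads as such a run on either strand. Lower case letters are up to 8 flanking bases on each side.
JAG1: ctctcatgAATATTAATAAgcgcgcat
DLL4: gaggagccAATATATATAAggaaggcc
JAG2: ccaccgccTTTAAAgcctgggg
The JAG1 stretch is chr20:10674052-10674078 on the minus strand, with its run of 11 starting at position -71 from the gene start. The DLL4 stretch is chr15:40929296-40929322 on the plus strand, with its run of 11 starting at -36. The JAG2 stretch is chr14:105168873-105168894 on the minus strand, with its run of 6 starting at -110. A run of at least 11 was found in 15.7% of 35116 promoters, and one of at least 6 in 61.2%. NOTCH1, NOTCH2 and NOTCH4 had longest runs of 4 and NOTCH3 one of 3, and the 7 windows were 59% to 79.7% G and C against a median of 58.7% over all promoters. These matches are descriptions of letters and not of binding.

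On the brightest JAG1 probe set, 209099_x_at, the log2 signal was 13.13, 12.81, 13.00 and 12.94 in siCTRL 1 to 4 and 12.26, 12.20, 12.21 and 12.33 in siHMGA1 1 to 4. The log2 fold change was -0.72 ± 0.078 (SE, n = 4 per group, 95% interval -0.89 to -0.55, limma adjusted p = 3.53e-05). The lowest siCTRL array stood 0.47 above the highest siHMGA1 array, and the exact two-sided permutation test over the 8 arrays gave p = 0.0286, the smallest value that 4 arrays against 4 allow. The probe set lies near the top of the array, with a mean above that of 98.44% of all probe sets. In fold terms 2.432% of all probe sets had a lower log2 fold change.

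Probe set 216268_s_at gave nearly the same picture, with 12.96, 12.67, 12.86 and 12.76 in siCTRL and 12.03, 11.91, 12.00 and 12.09 in siHMGA1. Its log2 fold change was -0.80 (95% interval -0.97 to -0.64, limma adjusted p = 1.32e-05), and the groups were 0.58 apart. The 4 siHMGA1 arrays were close together, with an SD of 0.0751 against 0.122 in siCTRL.

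The 2 dimmer probe sets that fell lay further down. Probe set 209098_s_at read 8.87, 8.34, 8.73 and 8.58 in siCTRL and 7.82, 7.61, 7.62 and 7.74 in siHMGA1, a log2 fold change of -0.93 (95% interval -1.16 to -0.71, limma adjusted p = 4.57e-05). Probe set 231183_s_at read 10.10, 8.97, 9.45 and 9.33 in siCTRL and 8.68, 8.28, 8.56 and 8.66 in siHMGA1, a log2 fold change of -0.92 (95% interval -1.33 to -0.51, limma adjusted p = 0.00375). The latter was the most spread of the 4, with a siCTRL range of 1.13, and its groups were 0.29 apart. Each of these 3 further probe sets had p = 0.0286 in the exact permutation test. The arrays kept a common order on the 4 probe sets: siCTRL 1 was the highest and siCTRL 2 the lowest of the siCTRL arrays on each of them, and siHMGA1 2 was the lowest of all 8.

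**Figure D2:**
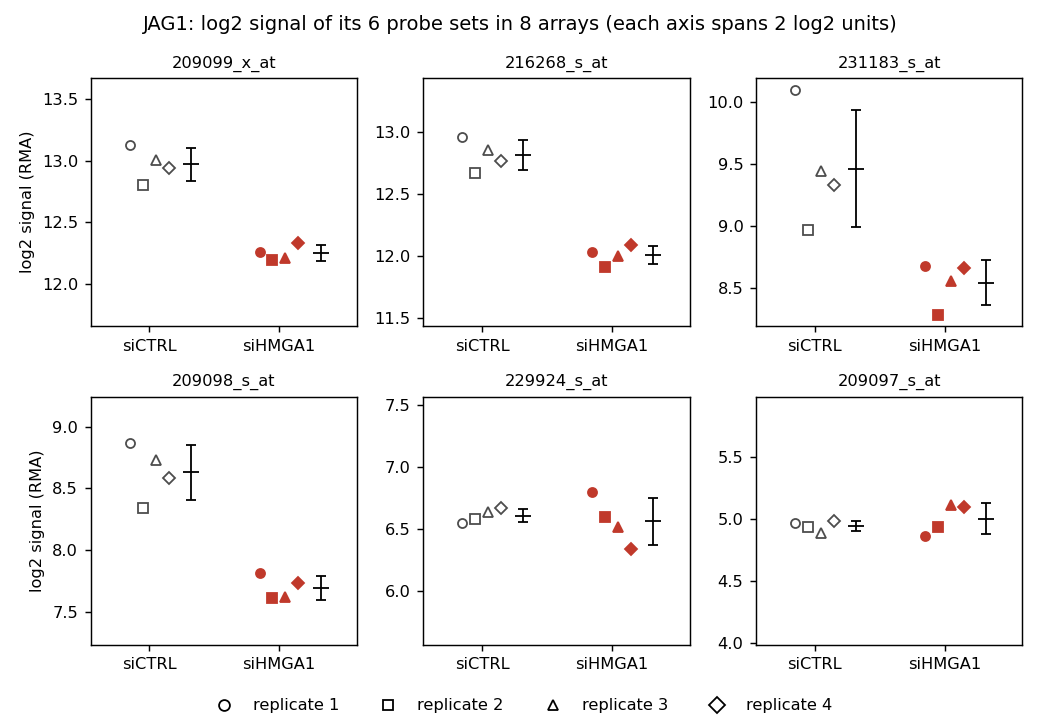
Log2 signal (RMA) of the 6 JAG1 probe sets, 1 panel each, in the 4 siCTRL and the 4 siHMGA1 arrays; points are arrays, marked by replicate number, dashes with bars are group means ± SD, and each axis spans 2 log2 units. On 4 probe sets every siHMGA1 array is below every siCTRL array, and on 229924_s_at and 209097_s_at the groups overlap.

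The other JAG1 probe sets showed no such fall. Probe set 229924_s_at read 6.54, 6.58, 6.63 and 6.67 in siCTRL and 6.80, 6.59, 6.52 and 6.33 in siHMGA1, and its log2 fold change of -0.05 had a 95% interval of -0.25 to 0.15 (limma adjusted p = 0.798). Probe set 209097_s_at read 4.97, 4.94, 4.88 and 4.98 in siCTRL and 4.86, 4.93, 5.11 and 5.10 in siHMGA1, with a log2 fold change of 0.06 (95% interval -0.10 to 0.22, limma adjusted p = 0.673). On both the groups overlapped, and both intervals exclude a fall of the size seen on the other 4. Their means lie above those of 57.22% and 31.88% of all probe sets, the lowest among the 6.

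Whether the JAG1 probe sets responded differently was tested on the array-by-array difference between the brightest and each of the others. The response of the brightest was lower than that of 209097_s_at by -0.78 (95% interval -0.99 to -0.56, limma adjusted p = 2.17e-04) and than that of 229924_s_at by -0.67 (95% interval -0.94 to -0.40, limma adjusted p = 0.00244). The differences from 216268_s_at, 231183_s_at and 209098_s_at were 0.09, 0.20 and 0.22 (limma adjusted p of 0.454, 0.405 and 0.0907). Over 21316 such pairs on the array, 20.4% passed. Of the 16 pairs among the 9 genes, those 2 JAG1 pairs passed and the other 14 did not. Signal at or near background and probes in different parts of a transcript both bear on this kind of difference, and their parts were not tested.

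JAG2, the other Jagged ligand, had overlapping groups on both probe sets. Probe set 32137_at read 6.93, 7.13, 7.13 and 7.19 in siCTRL and 7.10, 7.14, 7.08 and 7.11 in siHMGA1, a log2 fold change of 0.01 (95% interval -0.14 to 0.16, limma adjusted p = 0.948). On 209784_s_at the log2 fold change was 0.08 (95% interval -0.06 to 0.23, limma adjusted p = 0.460). Both intervals leave out a fall as large as that of JAG1.

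The Delta-like ligands did not pass the threshold either. DLL1 and DLL4 are activating ligands, while DLL3 mostly acts inside the cell and dampens Notch signalling in the cell that makes it. DLL1 lay under the lower quartile of all probe sets, 4.54, on both its probe sets: 227938_s_at ran from 3.99 to 4.34 in siCTRL and from 4.05 to 4.25 in siHMGA1, and 224215_s_at from 3.59 to 4.004 and from 3.67 to 3.97. Their log2 fold changes were -0.05 (95% interval -0.23 to 0.13) and 0.02 (95% interval -0.22 to 0.26), at levels where an array cannot tell a small change from background. DLL4, on 223525_at, read 6.41, 6.72, 6.36 and 6.60 in siCTRL and 6.47, 6.59, 6.61 and 6.46 in siHMGA1, a log2 fold change of 0.01 (95% interval -0.18 to 0.20, limma adjusted p = 0.953).

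DLL3 had the highest log2 fold change among the 25 probe sets, and it missed the threshold. Its probe set 222898_s_at read 6.27, 6.26, 6.005 and 6.33 in siCTRL and 6.58, 6.35, 6.58 and 6.26 in siHMGA1, with a log2 fold change of 0.23 (95% interval 0.02 to 0.44, limma adjusted p = 0.118) and p = 0.0857 in the exact permutation test. The groups overlapped, since siHMGA1 4 lay below siCTRL 1 and siCTRL 4. The other 3 DLL3 probe sets had log2 fold changes of 0.07 to 0.09 and adjusted p of 0.422 to 0.552 (limma). When the arrays were centred on housekeeping genes, 222898_s_at passed, with a log2 fold change of 0.31 (limma adjusted p = 0.0336).

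Among the receptors, 1 of 10 probe sets had an unadjusted p under 0.05 (limma), against 17257 of all 54613. None of the 10 passed the threshold, against 22.1% of all probe sets. With probe sets of a mean under 6 left out, 43.6% of all probe sets passed, and 0 of the members other than JAG1. None of the 10 receptor probe sets passed either in limma's robust trend fit or with array weights. Their log2 fold changes ran from -0.17 to 0.20 with a median of -0.01, against a median of 0.01 over all probe sets. These receptors are single-pass membrane proteins, and each of them is both ligand sensor and, after cleavage, a part of the nuclear complex with RBPJ.

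NOTCH1 came nearest to a call. On 218902_at the signal was 8.50, 8.32, 8.32 and 8.29 in siCTRL and 8.32, 8.10, 8.15 and 8.17 in siHMGA1, so the groups overlapped by 0.03 through siHMGA1 1. The log2 fold change was -0.17 (95% interval -0.34 to -0.01, limma adjusted p = 0.132), with p = 0.0571 in the exact permutation test. The array siCTRL 1 stood above the other 3 siCTRL arrays, and without it the log2 fold change was -0.12 (limma adjusted p = 0.271). The dimmer probe set 223508_at leaned the other way, at 0.15 (95% interval -0.11 to 0.41, limma adjusted p = 0.445), and the difference between both responses was -0.33 (limma adjusted p = 0.162).

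NOTCH2 was nearly flat on its bright probe sets. On 202443_x_at it ran from 12.55 to 12.62 in siCTRL and from 12.56 to 12.60 in siHMGA1, a log2 fold change of -0.0019 with a 95% interval of -0.13 to 0.13. On 212377_s_at it ran from 11.64 to 11.69 and from 11.64 to 11.75, with a log2 fold change of 0.01 (95% interval -0.12 to 0.14). The dimmer 210756_s_at and 202445_s_at had log2 fold changes of 0.20 (95% interval -0.02 to 0.42) and -0.02 (95% interval -0.22 to 0.18), with limma adjusted p of 0.209 and 0.919. The human NOTCH2NL genes are near copies of part of NOTCH2, so NOTCH2 probe sets may pick up their transcripts as well. A probe set annotated to NOTCH2 and 4 NOTCH2NL genes had a log2 fold change of -0.02 (95% interval -0.17 to 0.13), and the NOTCH2NLA probe set 214722_at one of -0.11 (limma adjusted p = 0.368).

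NOTCH3 and NOTCH4 also overlapped between the groups. NOTCH3, on 203237_s_at, ran from 6.77 to 7.16 in siCTRL and from 6.78 to 7.03 in siHMGA1, with a log2 fold change of -0.06 (95% interval -0.26 to 0.13, limma adjusted p = 0.707), and its dimmer 203238_s_at gave -0.03 (95% interval -0.23 to 0.17). NOTCH4, on 205247_at, read 5.83, 5.86, 5.94 and 6.04 in siCTRL and 5.87, 5.75, 5.64 and 5.78 in siHMGA1. Its log2 fold change was -0.16 (95% interval -0.32 to 0.0036, limma adjusted p = 0.168), with p = 0.0857 in the exact permutation test. On 240786_at NOTCH4 had -0.0061 (limma adjusted p = 0.969).

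**Figure D3:**
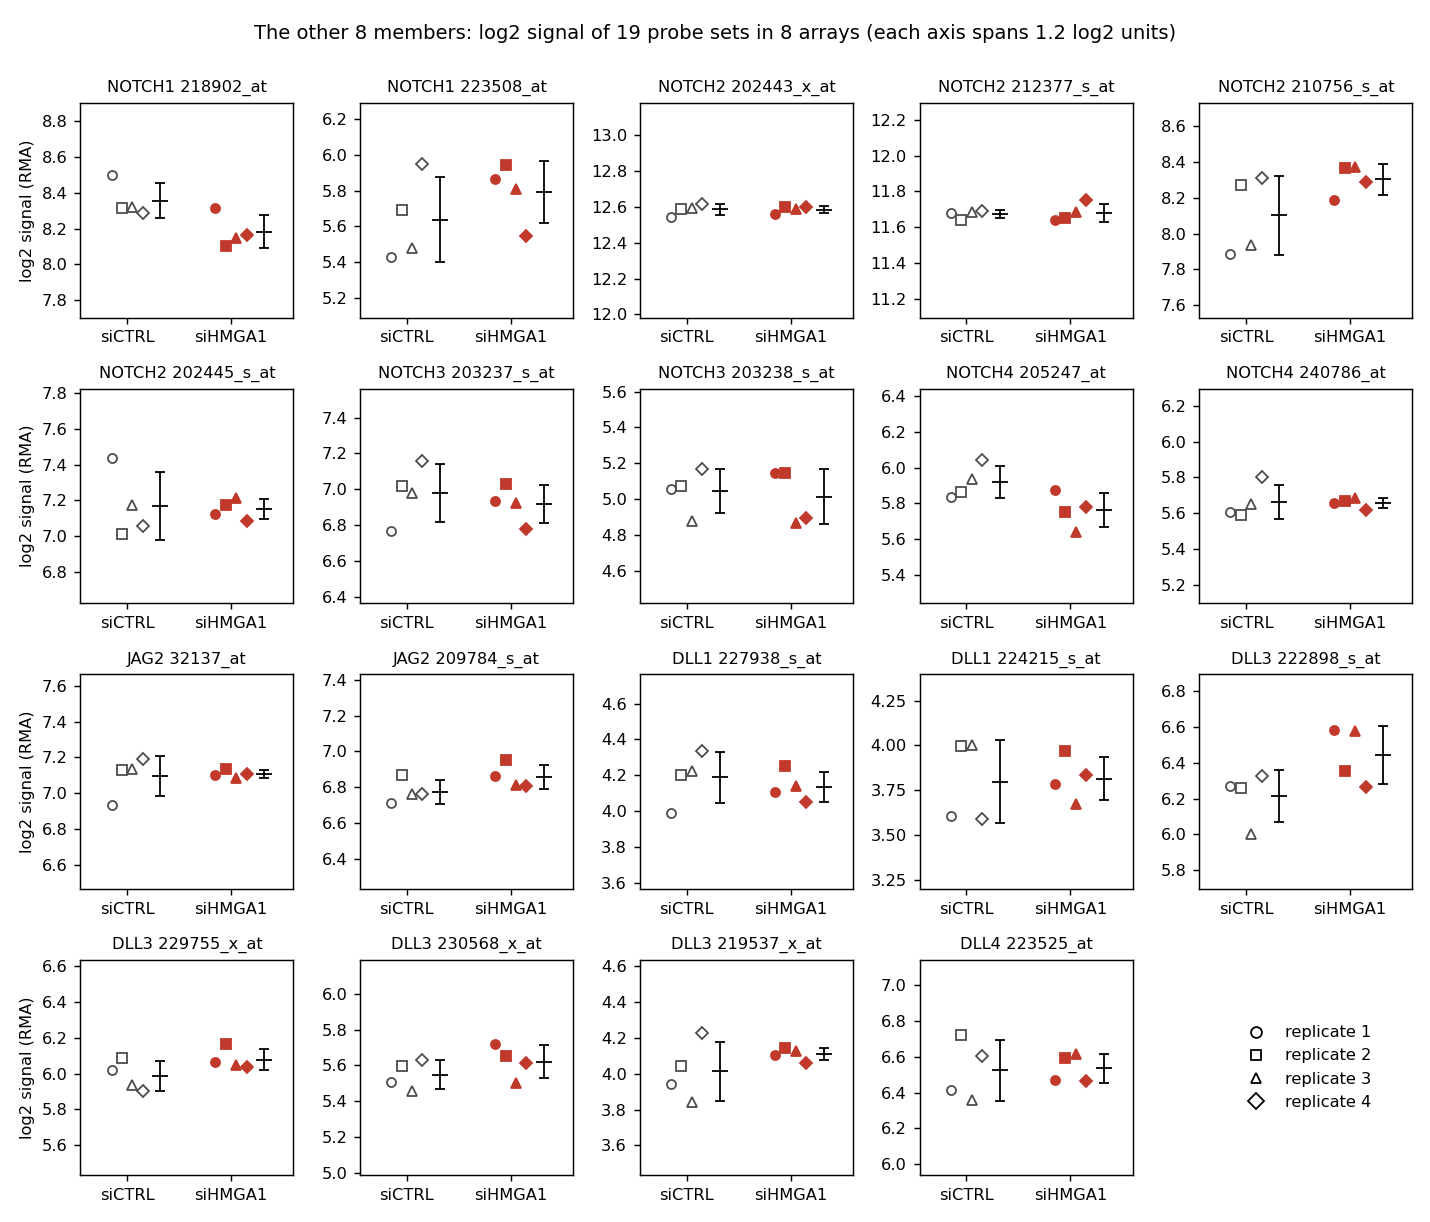
Log2 signal (RMA) of the 19 probe sets of the other 8 genes in the 4 siCTRL and 4 siHMGA1 arrays; points are arrays, marked by replicate number, dashes with bars are group means ± SD, and each axis spans 1.2 log2 units. The groups overlap in all 19 panels, and siCTRL 1 stands above the other siCTRL arrays on NOTCH1 218902_at.

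With each gene taken through its brightest probe set, the log2 fold change of JAG1 minus that of the other gene ran from -0.54 for NOTCH1 to -0.95 for DLL3, and was -0.73 for JAG2 and -0.72 for NOTCH2. JAG1 was set against the others after its fall had been seen, so these differences are a description with no test. Over the array, 3.33% of all genes fell by more than JAG1. Gene by gene, 1 of the 9 members passed, JAG1, against 30.5% of the 19775 genes on the array, 14.7% lower and 15.8% higher.

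The genes whose array-by-array pattern came closest to that of JAG1, after taking away each probe set's mean, were CHD7, PIGA, AKIRIN2, AURKA and TTC39C, with root mean square differences of 0.0336 to 0.0394 on the log2 scale over 8 arrays. Their log2 fold changes were -0.70 to -0.71, against -0.72 for JAG1, so the likeness is largely a step of the same size between the groups. Shared regulation was not tested. The genes closest to NOTCH2, the receptor with the highest mean, were RPS6, CNN3, UTS2, SYNCRIP and GPR162, at 0.0152 to 0.0183. These 5 were nearly flat, with SDs over the 8 arrays of 0.018 to 0.039. UTS2 had a mean of 3.21, under the lower quartile of all probe sets.

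Around the receptors and ligands, 60 further genes of the pathway were listed by role and 56 of them were measured. Of these, 10 fell and 13 rose (limma adjusted p under 0.05 over all genes), which is 41.1% against 30.5% of all genes. The share called depends on the signal level. With probe sets of a mean under 6 left out, 24 of 49 pathway genes passed. In that fit 43.6% of all probe sets passed, a share of probe sets and not of genes. Without that filter the share by list was 50% for receptor maturation, 42.9% for cleavage, 62.5% for the ligand list and 50% for trafficking. It was 33.3% for the activator complex, 25% for the corepressors and 30% for the targets, near the 30.5% of all genes. The median log2 fold change of the 56 genes was -0.02 against 0.01 for all genes. With the arrays centred on housekeeping genes, 5 fell and 15 rose, and APH1A, DLK2, DTX3, NUMBL and HES6 no longer passed, so the split between the directions depends on the scaling.

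Of the 6 genes for receptor maturation, 3 rose and none fell. POGLUT1, which adds glucose to the receptor's EGF repeats, rose by 0.29 on its brightest probe set (limma adjusted p = 0.0034). It passed on 1 of its 2 probe sets, with 0.21 on the other. The Fringe family glycosyltransferase RFNG rose by 0.27 (limma adjusted p = 0.0306). The RFNG groups overlapped, and its call was lost in 5 of the 8 fits that left out 1 array, with an adjusted p of up to 0.0926 (limma). Of the 7 genes for receptor cleavage, 2 rose and 1 fell. ADAM17, a membrane protease able to cut Notch receptors, rose by 0.58 (limma adjusted p = 3.54e-05) and passed on all 3 of its probe sets, while ADAM10, the main protease for the ligand-induced cut, had 0.02 (limma adjusted p = 0.900). In gamma-secretase, PSEN2 rose by 0.24 and APH1A fell by 0.22 (limma adjusted p of 0.0118 and 0.0098). PSEN2 passed on 2 of its 3 probe sets and APH1A on 1 of 3.

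Genes that act on ligands and the non-canonical ligands moved in both directions, with 2 of 8 lower and 3 higher. NEURL1B, a ubiquitin ligase that drives ligand endocytosis, fell from 8.39 to 7.56, a log2 fold change of -0.83 (limma adjusted p = 1.52e-06). DNER, an atypical ligand best known from the nervous system, rose from 6.27 to 7.12, a log2 fold change of 0.85 (limma adjusted p = 1.73e-04). CNTN1, a neural adhesion protein described as a Notch ligand, rose from 5.42 to 5.99 on its brightest probe set, by 0.57 (limma adjusted p = 0.0045). Its mean of 5.71 is under the median of all probe sets, 6.09. Of its 4 probe sets 2 passed, and the 4 ran from -0.15 to 0.57. Over the alternatives its log2 fold change went down to 0.15. DLK2, which lacks the domain by which Delta-type ligands activate Notch, had a log2 fold change of -0.19 (limma adjusted p = 0.0389), and this call was lost with any 1 of 7 arrays left out. Its only probe set did not pass when the adjustment ran over all probe sets in place of genes.

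Of the 8 genes for receptor trafficking and turnover, 2 fell and 2 rose. NUMB, an inhibitor of Notch, rose by 0.35 (limma adjusted p = 0.0191), while its relative NUMBL fell by 0.26 (limma adjusted p = 0.0181). NUMBL passed on 1 of its 2 probe sets, with -0.13 on the other. FBXW7, which marks the intracellular part of the receptor for destruction, rose by 0.26 (limma adjusted p = 0.0180), and 3 of its 4 probe sets passed. DTX3, of the Deltex family, fell by 0.31 (limma adjusted p = 0.0256) on its brightest probe set. DTX3 passed on 1 of its 5 probe sets, and their mean had a log2 fold change of -0.098 (limma adjusted p = 0.216). Each of these 4 calls was lost in at least 2 of the 8 fits that left out 1 array, with a highest adjusted p of 0.0689, for DTX3.

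In the nucleus, the activator complex had 2 of 9 genes lower and 1 higher. KAT2B, a histone acetyltransferase recruited to Notch targets, fell from 11.09 to 9.92, a log2 fold change of -1.17 (limma adjusted p = 5.91e-07), the largest fall of the 56 genes. SNW1, a transcription and splicing cofactor, fell by 0.26 (limma adjusted p = 0.0061) on its brightest probe set. It passed on 1 of its 2 probe sets, with -0.09 on the other. The coactivator MAML3 had a log2 fold change of 0.71 (limma adjusted p = 7.84e-05) on its brightest probe set, and the other 2 of its 3 probe sets did not pass. RBPJ, the DNA-binding partner of the receptors, had -0.09 (limma adjusted p = 0.451). Among 8 corepressors TLE3 fell by 0.48 (limma adjusted p = 3.73e-04), on all 4 of its probe sets, and CTBP2 rose by 0.27 (limma adjusted p = 0.0031), on 5 of 6.

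The genes listed as targets, mostly of the HES and HEY family, had 2 of 10 lower and 1 higher. That share, 30%, was about the 30.5% of all genes. Several of that family, but not all, are repressors that Notch switches on. HES1 fell by 0.43 (limma adjusted p = 0.0107) on its brightest probe set, and 2 of its 3 probe sets passed, with log2 fold changes over the 3 of -0.79 to 0.03. The call was lost in the equal-variance test that the methods name for other data (adjusted p = 0.0627). The study also reported HES1 lower by real-time PCR in this line, so this is not independent evidence. HES7, known from somite formation in the mouse, rose by 0.30 (limma adjusted p = 0.0096) on its only probe set. The HES7 mean of 6.19 is near the median of all probe sets, 6.09. HES6, which antagonises HES1, had -0.20 (limma adjusted p = 0.0221), lost in 3 of the 8 fits with 1 array left out.

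**Figure D4:**
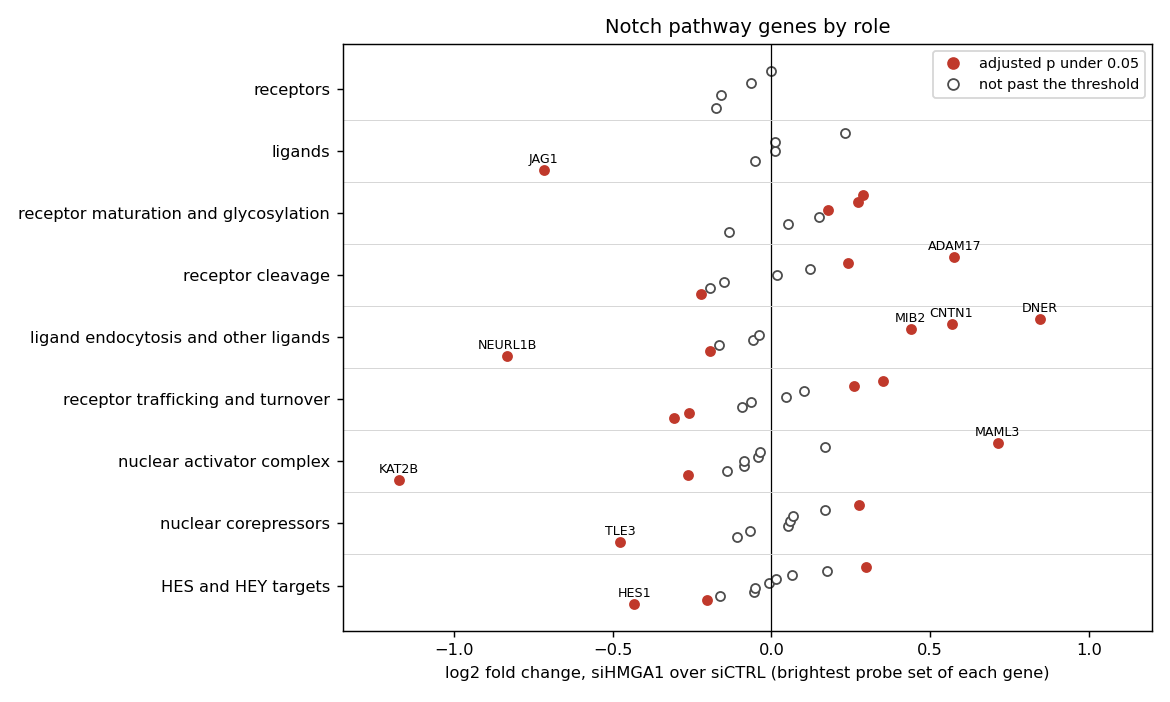
Log2 fold change, siHMGA1 over siCTRL, of the receptors, the ligands and the other Notch pathway genes, grouped by role, each gene through its brightest probe set (4 arrays per group). Filled red points passed an adjusted p of 0.05 over 19775 genes. KAT2B, NEURL1B and JAG1 lie furthest to the left, at -1.17, -0.83 and -0.72, and DNER, MAML3 and ADAM17 furthest to the right, at 0.85, 0.71 and 0.58.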

How the data were processed

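RNA of 4 siCTRL and 4 siHMGA1 samples was hybridised to Affymetrix arrays, which the methods name differently in different sections, with unequal replicate numbers. The labels give 4 samples per group, and all 8 arrays were used. The authors deposited log2 probe set signals made with Expression Console and RMA (the submitters' notes name RMA and affy, versions not given). RMA makes array distributions alike and compresses low signals, and scanner intensities were not analysed here. The number of arrays limits the precision.

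Of 54675 probe sets, 62 controls were left out. The platform annotation maps 41091 to 1 gene, 1801 to several and 11721 to none, and 54 gene identifiers had no RefSeq match. Genes were represented by their brightest probe set (19775 genes). siHMGA1 was compared with siCTRL with limma 3.58.1 in R 4.3.3 (lmFit and eBayes, no block), with Benjamini-Hochberg adjustment over all features and a threshold of 0.05. Exact permutation tests used the 70 splits of 8 arrays. Differences between probe sets of a gene were fitted likewise. Scripts were tested on simulated data.

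Named genes were HMGA1, all 9 members, up to 2 called genes per direction in each pathway list (largest log2 fold change), and the 5 genes nearest in pattern to JAG1 and NOTCH2. The other genes named in the text, RBPJ, ADAM10, the NOTCH2NL genes and the markers, are there as background. Members and lists were chosen with earlier results of these data known. The other 4 listed pathway genes are not analysed here. Alternatives were a replicate block, cyclic loess, housekeeping centring, a filter on dim probe sets, trend and robust eBayes, array weights, the methods' t-test, other ways to represent a gene, only probe sets with 1 gene name, the study's thresholds and leaving out each array.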

Additional observations from a re-analysis of the deposited data

Results flagged for a closer look

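One group stood apart by Dixon's criterion among the 52 groups of 4 arrays tested, where chance flags about 1 in 20 groups. It was NOTCH1 218902_at in siCTRL, where the array siCTRL 1, at 8.501, lay far above the nearest other array, at 8.32 (gap over range 0.839).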

How the results depend on the processing

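The 4 JAG1 probe sets stayed called lower in every fit run at an adjusted p of 0.05 except the equal-variance t-test of the methods, where 3 passed, 231183_s_at had an adjusted p of 0.0550 and 0 probe sets of other members passed. That test also lost the calls of RFNG, DTX3, NUMB and HES1 (adjusted p of 0.0863, 0.0865, 0.0799 and 0.0627). For JAG1 as 1 gene, the log2 fold change ran from -0.77 to -0.56 over 17 alternatives, the smallest for the mean of its 6 probe sets, and HMGA1 from -2.50 to -2.34 over 16. At the study's thresholds, 216 probe sets (0.396%) passed, with 0 member probe sets, 0 member genes and 0 pathway genes against 4, 1 and 23. The number of member genes called was 2 with housekeeping centring (DLL3, adjusted p = 0.0229), 2 without probe sets of mean under 6 (NOTCH1, adjusted p = 0.0499), and 0 without _s_at and _x_at probe sets, which leaves no JAG1 probe set and 4 of 9 members. With 1 array left out, 4 member probe sets were called each time, member genes were 1 to 2 and pathway genes 16 to 21. NOTCH1 passed without siHMGA1 replicate 1 (adjusted p = 0.0454), and DLL3 without siHMGA1 replicate 4 (adjusted p = 0.0407). Without _s_at and _x_at probe sets APH1A and HES1 turned, to 0.0052 and 0.026. Housekeeping centring gave 4350 lower and 10073 higher probe sets, 30.2% lower against 47.1%, and moved the median of all probe sets to 0.0897. With the replicate block, 4 JAG1 probe sets and 21.5% of all probe sets were called, and no member call changed. The sample titles number the experiments from 1 to 4 in both groups, and do not say whether same-numbered samples shared a culture. Deviations of same-numbered arrays correlated at 0.0503, 0.217, 0.0661 and -0.141. On these values the main fit did not treat the arrays as paired, though the titles leave a pairing possible. RMA compresses low signals, so changes of dim members such as DLL1 may be understated.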
